A study of Mus musculus with 42 samples.

Results

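Gene expression was compared between mouse brain libraries labelled hippocampus and libraries labelled cerebellum, all from mice that received a western diet together with the NaKtide transgene. The comparison used 11 of the 42 libraries of the series, chosen by their labels alone, 6 labelled hippocampus and 5 labelled cerebellum. They are called H 1 to H 6 and CB 1 to CB 5 below, after the replicate numbers of their labels. Both groups had 12 weeks of a diet with 42% fat and 15.2% protein, and both carried a NaKtide transgene that was switched on by doxycycline in the food at 300 mg/kg. The other 3 pairs of hippocampus and cerebellum labels came from mice on the western diet without NaKtide (5 and 5 libraries), on a chow diet with 11% fat with NaKtide (5 and 5) and on that chow without NaKtide (6 and 5). The labels do not say which promoter or cell type drives the transgene, whether mice without NaKtide also ate doxycycline, the sex or age of the mice, or whether the libraries of a group came from separate animals. The p-values therefore measure the spread between libraries. NaKtide is a peptide from the Na,K-ATPase that blocks the signalling of this pump through the kinase Src, and the title of the series places the question in adipocytes and cognitive decline.

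The hippocampus and the cerebellum are among the brain regions that differ most in gene expression. Granule cells make up most neurons of the cerebellum and carry a GABA-A receptor subunit, Gabra6, that few other cells have, and Purkinje cells are marked by Pcp2. Granule cells of the dentate gyrus carry Prox1, and the pyramidal cells of the hippocampus carry genes such as Fibcd1, Spink8 and Neurod6. A dissection of either region can also hold pieces of its neighbours, such as the choroid plexus, thalamus, midbrain or hindbrain.

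The 11 libraries held 6095977 to 9521002 counts and 15147 to 16345 genes with at least 10 counts. Levels of single genes are given in CPM, the share of a library's counts scaled to a common total with TMM factors. Xist, the RNA of the inactive X chromosome, was at 153 CPM in H 6, where Y-linked genes summed to 0.198 CPM, and at 38.0 CPM in CB 5, where Y-linked genes summed to 38.7 CPM. In the other 9 libraries Y-linked genes summed to at least 19.7 CPM. CB 5 was closer to 2 libraries labelled hippocampus of control mice, replicates 6 and 5, than to any other library. The mean chi-square per gene was 3.72 and 5.99 for these pairs, against 10.2 for CB 5 and CB 1, where sampling alone gives about 1. In these control replicates 6 and 5, Xist was at 9.38 and 10.7 CPM and Y-linked genes summed to 49.6 and 45.8 CPM.

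Markers did not separate the labels. Gabra6 was at 0, 0, 0, 0, 0.122 and 0.0992 CPM in H 1 to H 6, against 0, 0.997, 2.86, 0.122 and 0.138 CPM in CB 1 to CB 5, while its highest level in the other 31 libraries was 211 CPM. Pcp2 was at 0.343, 1.12, 0, 0.232, 0.612 and 0.0992 CPM in H 1 to H 6, against 0.11, 5.11, 17.2, 0.856 and 0.275 CPM in CB 1 to CB 5, with a highest level elsewhere of 634 CPM. Both defining markers of the cerebellum were thus at or near 0 in CB 1, CB 4 and CB 5 and low in CB 2 and CB 3. Prox1 was at 9.1, 28.2, 32.1, 11.6, 4.4 and 13.7 CPM in H 1 to H 6, against 10.3, 22.1, 7.63, 12.5 and 13.9 CPM in CB 1 to CB 5, and the groups overlapped. Neurod6 was at 4.98, 11.5, 0.357, 30.3, 27.3 and 0.397 CPM in H 1 to H 6, against 42.8, 11.2, 16.9, 81.5 and 41.3 CPM in CB 1 to CB 5, so 2 libraries labelled hippocampus, H 3 and H 6, nearly lacked a gene of pyramidal and cortical excitatory neurons. None of the 12 cerebellar granule cell, 12 Purkinje and cerebellar interneuron, 10 dentate or 11 pyramidal markers tested passed the test between the labels by edgeR or by DESeq2, and 2, 0, 0 and 2 of them had an unadjusted p under 0.05. Their median log2 differences were -0.74, -0.10, -0.21 and -0.04, against 0.01 over all genes tested. The names of the regions below are therefore those of the labels.

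Single libraries carried the markers of other regions. Levels of whole marker lists are means of log2(CPM + 1). The striatum list stood at 8.42 in H 6 and 8.33 in CB 1, against 3.73 to 6.92 in the other 9 libraries, and Drd2, the dopamine receptor of indirect pathway neurons, was at 196 CPM in H 6 and 155 CPM in CB 1. The thalamus list stood at 7.17 in H 3, above the 31 libraries of the other groups, and at 3.32 to 4.81 in the other 10. Between the labels its 10 genes had a median log2 difference of 1.49, and 8 of them were positive. Of the 10, 0 passed the test and 6 had an unadjusted p under 0.05 by edgeR, against 2817 of 17088 genes tested. Apart from H 3, the list ran from 3.32 to 4.81 in the hippocampus label and from 3.72 to 4.73 in the cerebellum label. The choroid plexus list stood at 6.40 in H 2, where Ttr, the thyroid hormone carrier made by choroid plexus, reached 4855 CPM, and at 1.42 to 3.82 in the other 10. The hindbrain and serotonin list stood at 4.03 in CB 2 and 1.88 in CB 3, and at no more than 0.48 in the other 9. The hypothalamus list was highest in CB 3 at 3.90, H 1 at 3.34 and CB 5 at 3.23. The myelin list was lowest in H 5 at 6.23 and ran from 7.76 to 9.02 in the other 10. In bulk tissue, fewer cells of a type and less RNA per cell cannot be told apart.

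**Figure D1:**
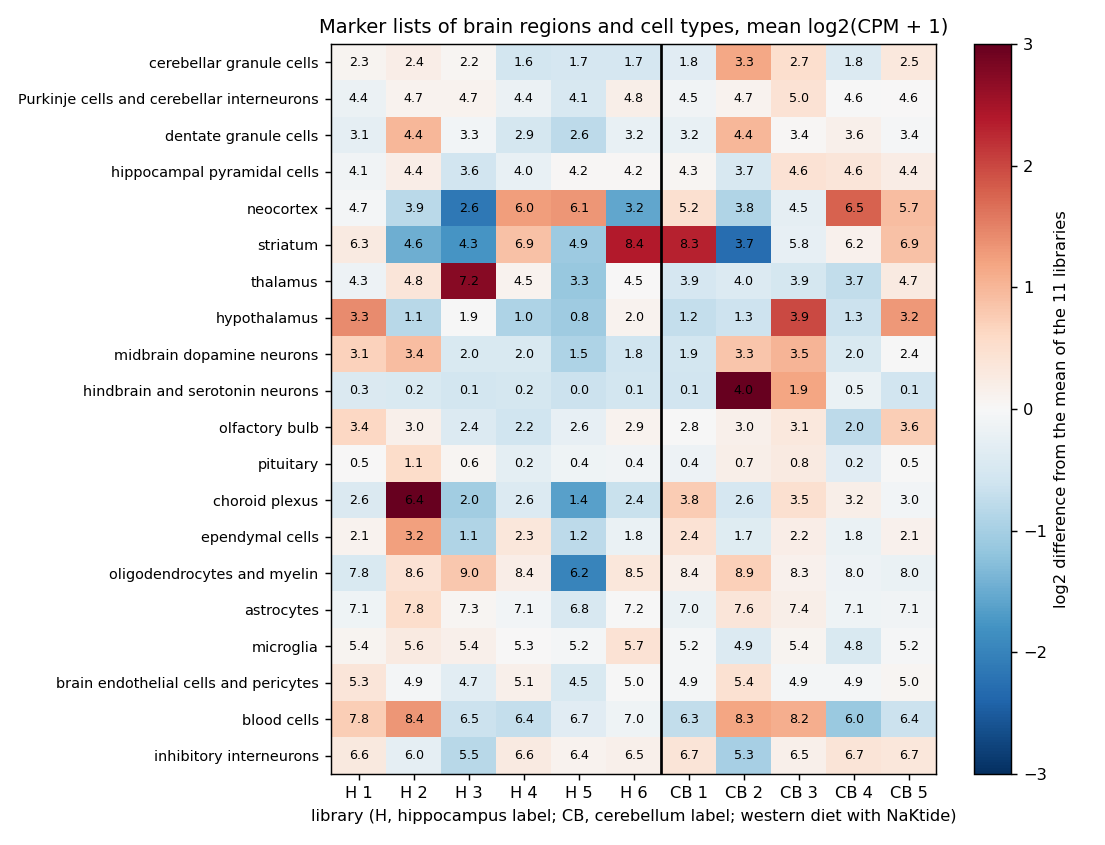
Mean log2(CPM + 1) of 20 marker lists (rows) in the 6 libraries labelled hippocampus (left of the line) and the 5 labelled cerebellum (right); colour gives the log2 difference from the mean of the 11 libraries. The strongest colours belong to single libraries of either label, such as thalamus in H 3 (7.17), choroid plexus in H 2 (6.40) and hindbrain and serotonin in CB 2 (4.03).

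Between the labels, 299 of 17088 genes tested, or 1.75%, passed edgeR's quasi-likelihood test at a Benjamini-Hochberg adjusted p under 0.05. Of these, 238 (1.39% of the genes tested) were higher and 61 (0.357%) lower in the hippocampus label. The higher genes had a median log2 fold change of 1.06 and a range from 0.42 to 4.07, and for 124 of them it exceeded 1. The lower genes had a median of -0.63, and 10 of them fell by more than 1 on the log2 scale. The groups rarely separated completely: every library of one label lay beyond every library of the other for 20 of the 238 higher genes and 14 of the 61 lower genes, against 0.322% and 0.375% of all genes tested in these directions. The call had already used these values.

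The number of called genes depended on single libraries. Leaving out H 1, H 2, H 3, H 4, H 5 and H 6 in turn gave 17, 843, 1, 1, 0 and 765 called genes, and leaving out CB 1 to CB 5 gave 0, 0, 805, 2 and 128. The counts grew without H 2 or H 6 and without CB 3. With 0 called, 2446 genes without H 5, 2269 without CB 1 and 2765 without CB 2 still had an unadjusted p under 0.05 by edgeR. The fit of the 11 libraries alone called 0 genes (1773 with an unadjusted p under 0.05), whereas DESeq2 on all 42 libraries called 672. Without H 6 and CB 5, which had the most Xist of the 11, 502 genes were called. The control libraries with Xist stayed in that fit. The fold changes of the 36 genes named below or in the closing section kept their sign under every one of these alternatives in which they were tested, which their choice among called genes favours.

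**Figure D2:**
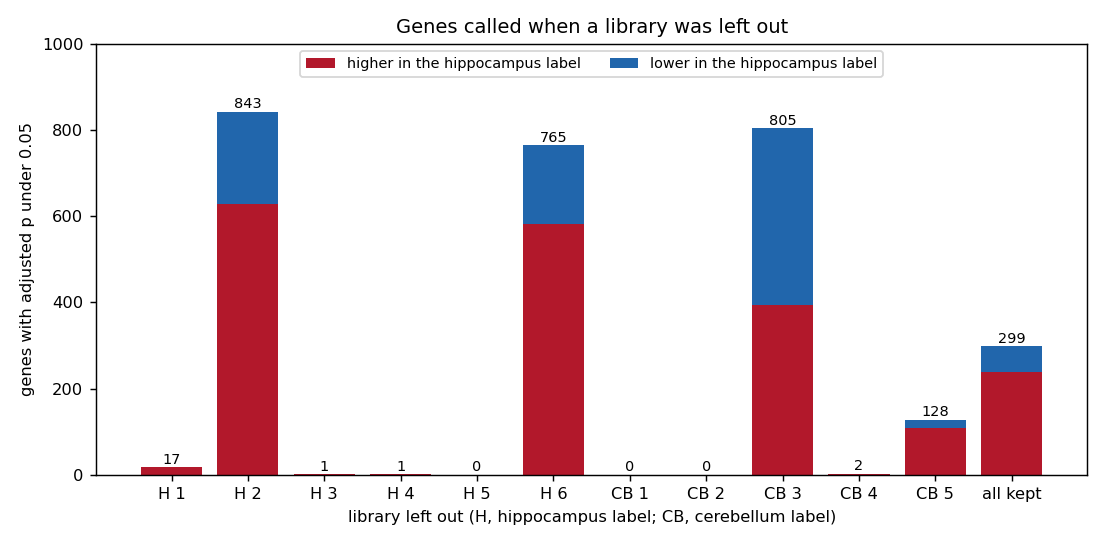
Number of genes with an edgeR adjusted p under 0.05 between the labels when each library named on the axis was left out, and with all 11 kept (299); red parts are higher and blue parts lower in the hippocampus label. The count runs from 0 (without H 5, CB 1 or CB 2) to 843 (without H 2).

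The higher genes were a shared pattern of 4 libraries. In 231 of the 238, libraries H 1, H 3, H 4 and H 5 all lay above every library labelled cerebellum. The call had already used these levels, and shares over all genes tested were not computed. The counts of this paragraph therefore only describe the called genes. H 2 was at or below the highest library labelled cerebellum in 198 of them and H 6 in 154, and H 2 and H 6 were the lowest pair of the hippocampus label in 221. With each gene set against its median over all 42 libraries, the median log2 level of the 238 genes was 0.77, 1.00, 0.90 and 0.97 in H 1, H 3, H 4 and H 5, and -0.30 and -0.07 in H 2 and H 6. It was -0.42, -0.31, -0.19, -0.40 and -0.13 in CB 1 to CB 5. The 31 libraries of the other groups ran from -0.30 to 0.65, with the highest in replicate 3 of the hippocampus label on chow with NaKtide. The 61 lower genes stood at -0.45 to -0.19 in H 1 to H 6, against 0.31, 0.35, -0.18, 0.39 and 0.27 in CB 1 to CB 5. CB 3 was the lowest library labelled cerebellum in 48 of the 61.

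**Figure D3:**
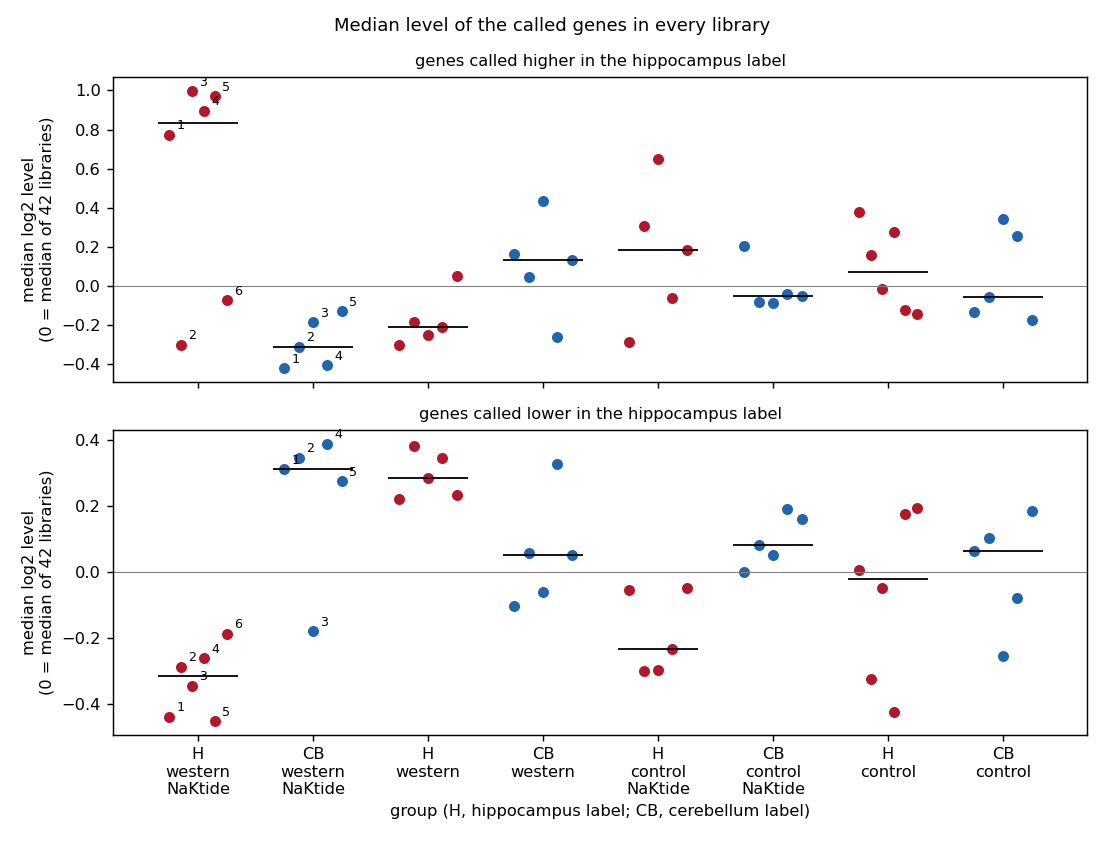
Median log2 level of the 238 genes called higher (top) and the 61 called lower (bottom) in the hippocampus label, each gene relative to its median over the 42 libraries; points are libraries, lines are group medians and digits are replicate numbers. H 1, H 3, H 4 and H 5 (0.77 to 1.00) lie above all other libraries in the top panel, and H 2 (-0.30) and H 6 (-0.07) lie among them.

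Meg3 and Snhg11, both named after their values were seen, showed the pattern at high counts. Meg3, an imprinted long noncoding RNA of neurons (chr12:109541001-109571726, GRCm38, GENCODE M21), was at 3085, 567, 3488, 2812, 3194 and 916 CPM in H 1 to H 6, against 559, 663, 677, 559 and 924 CPM in CB 1 to CB 5 (log2 fold change 1.79, SE 0.37, adjusted p = 0.0194). H 1, H 3, H 4 and H 5 exceeded every other library of the series, where the highest level was 2136 CPM, and H 2 and H 6 lay within the range of the cerebellum label. Snhg11, a host gene of small nucleolar RNAs, averaged 1077 ± 601 CPM in the hippocampus label and 365 ± 87.8 CPM in the cerebellum label (log2 fold change 1.56, SE 0.36, adjusted p = 0.0275). Kcnq1ot1, the imprinted antisense RNA of the Kcnq1 domain, was at 25.1, 2.57, 32.6, 13.4, 19.8 and 3.37 CPM in H 1 to H 6, against 3.42, 4.49, 3.82, 3.18 and 6.47 CPM in CB 1 to CB 5 (log2 fold change 1.91, SE 0.44, adjusted p = 0.0275). Atcayos, named as the opposite strand of Atcay, averaged 3.51 ± 2.26 CPM in the hippocampus label and 0.864 ± 0.387 CPM in the cerebellum label (log2 fold change 2.02, SE 0.52, adjusted p = 0.0365). The labels name a stranded kit, but how strand was used in counting is not given in the sources used here, so reads of Kcnq1ot1 and Atcayos may include those of the genes opposite them. Of 984 genes tested that GENCODE types as long noncoding or as still to be classed, 26 were higher (2.64%), whereas 205 of 14090 protein-coding genes (1.45%) and 7 of 1973 pseudogenes (0.355%) were higher.

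Snrnp70, the U1 snRNP protein that helps define splice sites (chr7:45376453-45395742), was at 392, 119, 385, 415, 497 and 164 CPM in H 1 to H 6, against 125, 133, 136, 119.6 and 159.8 CPM in CB 1 to CB 5 (log2 fold change 1.29, SE 0.25, adjusted p = 0.0194). H 2 lay below every library labelled cerebellum and H 6 just above the highest of them, and the other 4 stood apart. Leng8, a nuclear protein linked to mRNA export, was at 211, 44.9, 187, 220.3, 267 and 64.6 CPM in H 1 to H 6, against 41.9, 47.6, 42.5, 56.3 and 68.7 CPM in CB 1 to CB 5 (log2 fold change 1.69, SE 0.33, adjusted p = 0.0194). The splicing factors Rbm5 and Prpf40b and the nuclear anchoring protein Akap8l, named after their values were seen, had log2 fold changes of 1.05, 1.05 and 1.14. Fam193b, also named after its values were seen, averaged 168 ± 96.8 CPM in the hippocampus label and 47.4 ± 8.61 CPM in the cerebellum label (log2 fold change 1.82, SE 0.37, adjusted p = 0.0194).

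The smallest p belonged to Slc39a2, a zinc importer of the ZIP family (chr14:51892889-51896745). It was at 12.9, 3.21, 11.2, 12.2, 17.2 and 3.97 CPM in H 1 to H 6, against 1.21, 1.37, 1.91, 2.45 and 2.75 CPM in CB 1 to CB 5 (log2 fold change 2.38, SE 0.40, adjusted p = 0.0116). Its groups did not overlap, although H 2 and H 6 stood nearest to the cerebellum label. Il18bp, the secreted inhibitor of interleukin 18, averaged 5.02 ± 2.55 CPM in the hippocampus label and 1.44 ± 0.475 CPM in the cerebellum label (log2 fold change 1.79, SE 0.34, adjusted p = 0.0194). Arhgap45, a GTPase-activating protein of blood cells, averaged 11.8 ± 3.92 CPM in the hippocampus label and 5.42 ± 1.21 CPM in the cerebellum label (log2 fold change 1.12, SE 0.22, adjusted p = 0.0194).

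Col16a1, a collagen associated with fibrils (chr4:130047840-130099283), was at 69.2, 13, 116, 40.3, 59.1 and 13.9 CPM in H 1 to H 6, against 5.51, 19.2, 19.4, 8.19 and 12 CPM in CB 1 to CB 5 (log2 fold change 2.01, SE 0.50, adjusted p = 0.0322). Col26a1 averaged 15.5 ± 11.8 CPM in the hippocampus label and 3.49 ± 1.06 CPM in the cerebellum label (log2 fold change 2.14, SE 0.50, adjusted p = 0.0275), with its highest level, 33.5 CPM, in H 3. Dnhd1, a gene of the dynein heavy chain family, averaged 6.9 ± 4.96 CPM in the hippocampus label and 1.78 ± 0.763 CPM in the cerebellum label (log2 fold change 1.94, SE 0.52, adjusted p = 0.044). Celsr3, a cadherin of axon guidance named after its values were seen, averaged 93 ± 53 CPM in the hippocampus label and 33.5 ± 7.15 CPM in the cerebellum label (log2 fold change 1.47, SE 0.37, adjusted p = 0.0334).

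Pisd, the mitochondrial enzyme that makes phosphatidylethanolamine, and a pseudogene of it were both called. Pisd-ps1, annotated as a pseudogene of Pisd, was at 71.9, 18.9, 70.6, 86, 96.5 and 29.2 CPM in H 1 to H 6, against 12.3, 13, 14, 12.2 and 30.6 CPM in CB 1 to CB 5 (log2 fold change 1.92, SE 0.37, adjusted p = 0.0194). Pisd itself was at 69.9, 46.5, 73.7, 74.6, 79 and 51 CPM in H 1 to H 6, against 34.8, 43.4, 53.6, 39.3 and 39 CPM in CB 1 to CB 5 (log2 fold change 0.65, SE 0.13, adjusted p = 0.0194). Near-identical copies can exchange reads, so the split between them is uncertain. AC149090.1, a gene on an unplaced scaffold and among the smallest p, averaged 568 ± 276 CPM in the hippocampus label and 162 ± 60.3 CPM in the cerebellum label (log2 fold change 1.81, SE 0.34, adjusted p = 0.0194).

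**Figure D4:**
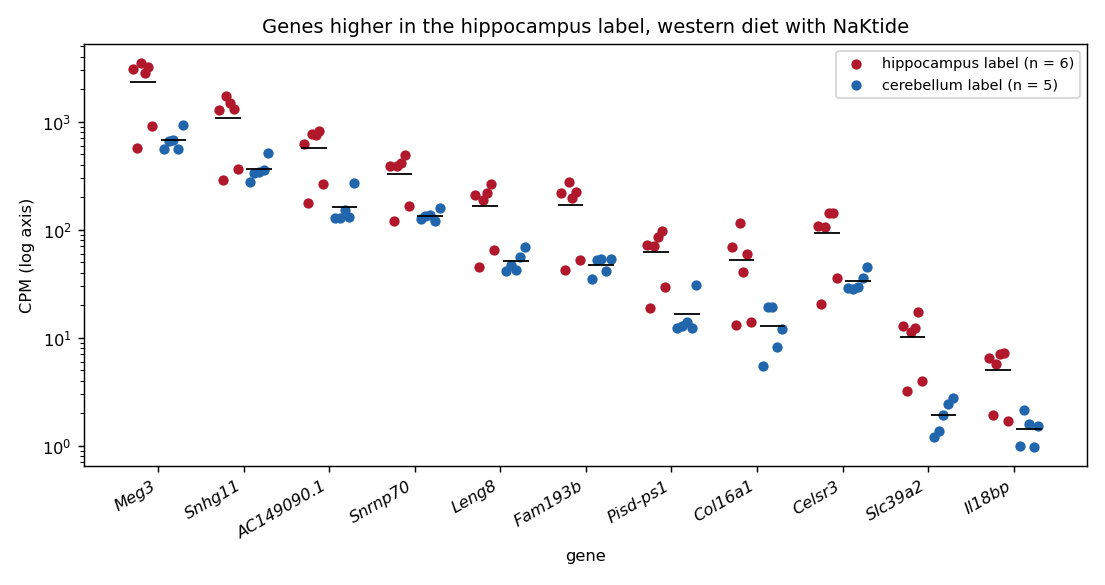
CPM on a log axis of 11 genes higher in the hippocampus label; points are libraries in replicate order (6 labelled hippocampus on the left of each pair, 5 labelled cerebellum on the right), lines are means. In each gene but Slc39a2, H 2, H 6 or both lie at or below the highest library labelled cerebellum, as for Meg3 (567 and 916 CPM).

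Higher and lower genes differed in base composition. The GC content of the longest transcript had a median of 54.0% over the higher genes, 41.7% over the lower genes and 49.8% over all genes tested. The higher genes had a median of 12 exons and the lower genes 8, against 6 over all, with longest transcripts of 3678, 3771 and 3069 bases. Mitochondrial protein genes took 11.1, 5.91, 15.6, 8.92, 5.60 and 5.98% of the counts of H 1 to H 6, against 7.16, 6.78, 6.06, 5.61 and 8.05% in CB 1 to CB 5. The shares averaged 8.84 ± 3.94% in the hippocampus label and 6.73 ± 0.954% in the cerebellum label (SD, n = 6 and 5), a difference of 2.11 percentage points (exact two-sided permutation test, p = 0.312). Without H 3 the difference was 0.766 percentage points. The part of base composition, gene structure and mitochondrial share in the called genes was not tested.

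The 4 largest falls among the named genes were of genes of monoamine and glycine neurons. Tph2, the enzyme that starts serotonin synthesis in neurons (chr10:115078641-115185022), was at 0.515, 0.321, 0, 1.05, 0.245 and 0.695 CPM in H 1 to H 6, against 0.772, 104, 49.5, 3.91 and 0.551 CPM in CB 1 to CB 5 (log2 fold change -5.93, SE 1.42, adjusted p = 0.0278). Slc6a5, the glycine transporter of glycinergic neurons, was at 0.172, 0.16, 0.535, 0.232, 0 and 0 CPM in H 1 to H 6, against 0, 112, 2.23, 0.367 and 0.138 CPM in CB 1 to CB 5 (log2 fold change -7.01, SE 1.68, adjusted p = 0.0278). Dbh, the enzyme that makes noradrenaline, was at 0.172, 0.16, 0, 0.116, 0.612 and 0.0992 CPM in H 1 to H 6, against 0.331, 4.61, 28.8, 0.245 and 0.413 CPM in CB 1 to CB 5 (log2 fold change -4.96, SE 1.19, adjusted p = 0.0278). CB 2 and CB 3 held nearly all of these transcripts, and CB 1, CB 4 and CB 5 overlapped or came near the hippocampus label. Slc6a4, the serotonin transporter, had 2 counts in all over H 1 to H 6 and 640 over CB 1 to CB 5 (adjusted p = 0.0463). The ratio of cerebellum over hippocampus label was 382 per library total, with a 95% exact interval of 105 to 3160 that covers counting error only. Of the 9 genes of the hindbrain and serotonin list, 5 were tested and 3 fell, Tph2, Slc6a5 and Slc6a4, against 0.357% lower over all genes. Leaving out CB 1, CB 2, CB 4, H 1, H 3, H 4 or H 5 left 0 of the list called, as did the replicate block. The fit of the 11 libraries alone did not test Tph2, Slc6a5, Slc6a4 or Dbh, which its low-count filter removed. Without CB 2 the log2 fold changes were -4.69 for Tph2 (adjusted p = 0.0935), -1.85 for Slc6a5 (adjusted p = 0.656) and -6.94 for Slc6a4 (adjusted p = 0.117). For Dbh the log2 fold change was -2.70 without CB 3 (adjusted p = 0.142) and -5.72 without H 5 (adjusted p = 0.0769). The Hox genes of that list, which mark the hindbrain, were at 0 in 10 libraries, and in CB 2 Hoxb5 was at 17 CPM.

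Other falls were smaller. Hcrtr2, a receptor for orexin, averaged 0.311 ± 0.167 CPM in the hippocampus label and 2.01 ± 1.55 CPM in the cerebellum label (log2 fold change -2.68, SE 0.62, adjusted p = 0.0275), and its groups did not overlap. Without CB 2 its log2 fold change was -2.08 (adjusted p = 0.102). Minar1, a membrane protein of the Notch pathway, averaged 0.996 ± 0.447 CPM in the hippocampus label and 4.04 ± 3.79 CPM in the cerebellum label (adjusted p = 0.0416), with 10.6 CPM in CB 2, and its log2 fold change without CB 2 was -1.26 (adjusted p = 0.213). Tmem196, a transmembrane protein, had a log2 fold change of -1.46, but CB 3, at 1.75 CPM, lay below every library labelled hippocampus (2.08 to 3.60 CPM). Elovl4, which lengthens fatty acids and was named after its values were seen, was at 25.7, 24.4, 26.4, 25, 25.9 and 26 CPM in H 1 to H 6, against 38.6, 38.6, 24.7, 46.8 and 41 CPM in CB 1 to CB 5 (log2 fold change -0.57, SE 0.14, adjusted p = 0.0278). The hippocampus label varied little for this gene, and CB 3 alone overlapped it. Cops2, a subunit of the COP9 signalosome also named after its values were seen, averaged 43.2 ± 6 CPM in the hippocampus label and 66.4 ± 13.4 CPM in the cerebellum label (log2 fold change -0.62, SE 0.13, adjusted p = 0.0194). Tmem30a, a partner of phospholipid flippases, Mosmo, a modulator of Hedgehog signalling, and Usp9x, a deubiquitinase, all named after their values were seen, had log2 fold changes of -1.03, -0.91 and -0.63.

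Genes of cholesterol supply were among those that fell. Cells make cholesterol by the mevalonate pathway and also take it up, and the factor SREBP2 switches on genes of both. Insig1 holds SREBP2 and its escort Scap in the endoplasmic reticulum when sterols are plentiful, and is itself one of their targets. A list of 28 genes of sterol synthesis and uptake was written after the called genes were seen. All 28 were tested, and 5 fell and 0 rose (13 had an unadjusted p under 0.05, and DESeq2 called 8), against 0.357% lower and 1.39% higher over all genes. The median log2 difference of the list was -0.34, against 0.01 over all genes, and 23 of 28 were negative.

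Insig1 (chr5:28071363-28078662) was at 56.8, 66.1, 51.4, 70.5, 55.3 and 39.1 CPM in H 1 to H 6, against 85.3, 122, 75.6, 97.1 and 73.3 CPM in CB 1 to CB 5 (log2 fold change -0.68, SE 0.18, adjusted p = 0.0446). Its groups did not overlap. Stard4, a carrier of cholesterol between membranes, averaged 13.8 ± 2.68 CPM in the hippocampus label and 24.2 ± 6.04 CPM in the cerebellum label (log2 fold change -0.81, SE 0.20, adjusted p = 0.0278). Hsd17b7 and Sc5d, enzymes of the late steps of cholesterol synthesis, averaged 7.15 ± 1.75 CPM in the hippocampus label and 14.1 ± 6.68 CPM in the cerebellum label for the first (log2 fold change -0.98, SE 0.26, adjusted p = 0.0436) and 37.9 ± 7.54 CPM in the hippocampus label and 55.9 ± 11.2 CPM in the cerebellum label for the second (log2 fold change -0.56, SE 0.15, adjusted p = 0.0468). The synthase Hmgcs1 did not pass the test, at 95.1, 119, 105, 123, 115 and 67.8 CPM in H 1 to H 6, against 188, 188, 93.7, 204 and 151 CPM in CB 1 to CB 5 (log2 fold change -0.67, adjusted p = 0.0873). Srebf2, which encodes SREBP2, did not pass either (log2 fold change -0.12, adjusted p = 0.783). Leaving out CB 1, CB 2, CB 4, H 1, H 3, H 4 or H 5 left 0 of the list called, and leaving out CB 3 or H 2 gave 10.

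**Figure D5:**
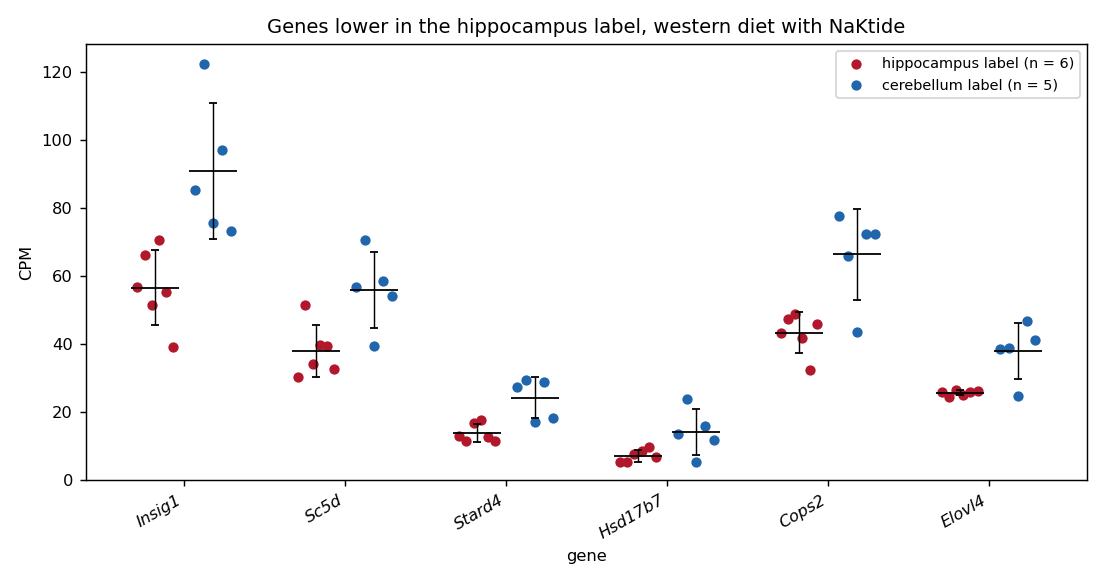
CPM of 6 genes lower in the hippocampus label; points are libraries in replicate order (6 labelled hippocampus on the left of each pair, 5 labelled cerebellum on the right), with mean and SD. Insig1 (39.1 to 70.5 against 73.3 to 122 CPM) is the only one of the 6 whose groups do not overlap, and CB 3 is the lowest library labelled cerebellum for Sc5d, Stard4, Hsd17b7, Cops2 and Elovl4.

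Promoters are shown for 3 of the 5 called genes of the sterol list, Hsd17b7, Insig1 and Sc5d, and not for Stard4, which also fell. Stard4 was not among the genes found to hold an E-box, CACGTG, a motif that SREBP and many other factors can bind. Promoters were found for only 20 of the 28 listed genes, and whether Stard4 was among them is not given. No absence of the motif from Stard4 follows. Each of the 3 windows shown holds an E-box, which does not cover the called genes left out. They are RefSeq sequences of GRCm38.p6, from 250 bases before to 50 after the annotated start, read 5′ to 3′ on the gene's strand, with the E-box in capitals.
Hsd17b7 promoter, chr1:169969156-169969455, minus strand: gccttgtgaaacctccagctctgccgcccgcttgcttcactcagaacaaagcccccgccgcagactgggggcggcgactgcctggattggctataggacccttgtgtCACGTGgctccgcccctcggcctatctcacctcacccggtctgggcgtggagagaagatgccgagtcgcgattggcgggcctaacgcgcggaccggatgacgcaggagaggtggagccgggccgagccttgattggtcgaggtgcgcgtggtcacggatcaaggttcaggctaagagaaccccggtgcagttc
Insig1 promoter, chr5:28071162-28071461, plus strand: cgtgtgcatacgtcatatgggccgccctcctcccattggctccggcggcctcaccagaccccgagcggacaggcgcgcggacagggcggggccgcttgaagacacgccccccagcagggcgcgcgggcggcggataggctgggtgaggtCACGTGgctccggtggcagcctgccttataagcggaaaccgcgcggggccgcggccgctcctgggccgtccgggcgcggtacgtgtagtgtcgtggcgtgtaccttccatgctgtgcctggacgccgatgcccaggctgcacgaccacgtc
Sc5d promoter, chr9:42264251-42264550, minus strand: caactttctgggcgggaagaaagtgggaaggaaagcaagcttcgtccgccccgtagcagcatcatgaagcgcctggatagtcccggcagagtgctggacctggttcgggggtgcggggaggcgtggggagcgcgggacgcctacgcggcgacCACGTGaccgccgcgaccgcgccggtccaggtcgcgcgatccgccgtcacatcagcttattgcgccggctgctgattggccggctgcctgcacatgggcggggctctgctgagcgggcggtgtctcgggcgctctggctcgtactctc
The E-box started 143, 101 and 98 bases before the start of Hsd17b7, Insig1 and Sc5d, and it reads the same on both strands. It was in 4 of the 20 promoters found for the list and in 1957 of all 27025 promoters (7.24%). The longer word TCACGTGG, which contains it and was searched on both strands, was in 3 of the 20 and in 1.54% of all. The sterol response element word TCACNCCAC was in 1 of the 20, Hmgcs1, and in 1.22% of all, and the CCAAT box as ATTGG was in 17 of the 20 and in 37.9% of all. The list was chosen with these results known, so the shares are a description.

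Gene groups of neurons, glia and metabolism gave few calls. Of 31 lists of region, cell type and function genes, only the hindbrain and serotonin list held called genes. The other 30 lists had 394 memberships tested, of which 0 were called by edgeR and 0 by DESeq2, and 36 had an unadjusted p under 0.05. Over all genes, 1.75% were called and 2817 of 17088 had an unadjusted p under 0.05, a larger share than in these lists. All 44 cytosolic ribosomal protein genes had positive differences, with a median log2 difference of 0.20, but 0 of them had an unadjusted p under 0.05 by edgeR. The highest of the 11 libraries for their list was CB 3, at 8.80. All 10 choroid plexus genes had positive differences with a median of 1.21, and H 2 was the highest of the 11 libraries for each of these 10. Apart from H 2, the choroid plexus list stood at 1.42 to 2.65 in the hippocampus label, mostly below the 2.55 to 3.82 of the cerebellum label. The 17 genes of the Na,K-ATPase and its Src signalling had a median of -0.06. The pump subunit Atp1b1 was at 524, 650.4, 537, 583, 538 and 617 CPM in H 1 to H 6, against 834, 1106, 404, 1173 and 967 CPM in CB 1 to CB 5 (log2 fold change -0.64, adjusted p = 0.121). Microglial genes had a median of 0.39, and 4 of 12 had an unadjusted p under 0.05. GABA-A receptor subunits had a median of -0.54, with 12 of 13 negative.

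The same contrast in the other mice did not repeat the called genes in a uniform way. Without NaKtide on the western diet, 19 of the 238 higher genes (7.98%) had a positive difference between the labels, against 43.6% of all genes, and their median log2 difference was -0.34. On chow with NaKtide 201 of 238 (84.5%) were positive, against 49.8% of all genes, with a median of 0.24, and on chow without NaKtide 139 (58.4%) were positive, against 50.9%, with a median of 0.06. Of the 61 lower genes, 13 (21.3%), 58 (95.1%) and 39 (63.9%) were negative in these pairs, where 43.6%, 49.8% and 50.9% of all genes were positive. Tph2, Slc6a4 and Slc6a5 were also called lower on chow without NaKtide (edgeR adjusted p = 0.0314, 0.0353 and 0.0448). Their log2 differences were -6.53, -10.8 and -6.33 there, -3.67, -4.45 and -3.35 on the western diet without NaKtide, and 0.57, 0.56 and -3.42 on chow with NaKtide. Outside the 11 libraries Tph2 and Slc6a4 peaked at 310 and 161 CPM, in replicate 2 of the cerebellum label on chow without NaKtide. Within these pairs edgeR called 0 genes on the western diet (3866 with an unadjusted p under 0.05, and 160 by DESeq2), 0 on chow with NaKtide (3617, and 3 by DESeq2) and 376 on chow alone (2.2%), where 4956 had an unadjusted p under 0.05 and DESeq2 called 1684.

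The difference between the label contrasts was tested in the same fit. Between western diet with and without NaKtide it was called for 1510 genes (8.84% of the genes tested), 751 of them (4.39%) more positive with NaKtide and 759 (4.44%) more negative. The count was 4089 without CB 3, and 575, 416, 730, 794 and 805 without CB 1, CB 4, CB 5, H 1 or H 5. This comparison contains the same 11 libraries, so it is no separate evidence on the genes above. Fam193b had log2 differences of 1.82 with NaKtide and -0.55 without, a difference of 2.37 (SE 0.52, edgeR adjusted p = 0.014), and Tmem30a had -1.03 with and 0.89 without, a difference of -1.92 (SE 0.36, edgeR adjusted p = 0.014). Of the 13 GABA-A receptor subunits tested, 3 were called, all more negative with NaKtide, against 4.44% over all genes. One of them, Gabrb2, had log2 differences of -0.98 with and 2.17 without NaKtide. Of 17 glutamate receptor genes 3 were called and of 17 genes of the Na,K-ATPase and its Src signalling 1, against 8.84% over all genes. The dentate list held 1 called gene of 10 and the sterol list 2 of 28. The glutamate receptors Gria2 and Grm5 and the pump subunit Atp1b1 were more negative, with differences of -1.80, -2.46 and -1.11, and the receptor subunit Grin2c was more positive at 2.33. Of 12 microglial genes 3 were called, against 4.39% more positive over all genes. Aif1, Trem2 and Tyrobp, which mark and regulate these immune cells, were more positive with NaKtide, with differences of 1.41, 1.16 and 1.15. Single libraries also differed in region markers, as given above, and the part of these in the differences was not tested. Between western diet and chow, both with NaKtide, 0 genes were called by edgeR (1154 with an unadjusted p under 0.05, and 4 by DESeq2), with 7 without H 2 and 1 without H 6, and against chow without NaKtide 48 (0.281%) by edgeR and 1097 by DESeq2. The 48 became 0 without CB 1, CB 4, CB 5, H 1, H 3 or H 5, and 546, 3572, 244 and 901 without CB 2, CB 3, H 2 or H 6.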

How the data were processed

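RNA was measured in 42 mouse brain libraries, of which the 6 and 5 labelled hippocampus and cerebellum with western diet and NaKtide were compared. A TruSeq kit that keeps strand was used, per the labels' protocols. Trimmomatic 0.38, HISAT2 2.1.0 and, on GRCm38, DESeq2 1.20.0 are named, with no order, per the submitters' processing notes. The tool that counted reads, with its strand setting and gene models, is not given in the sources used here. Because the series' own design text describes liver and adipose tissue, groups rest on the sample labels. The deposited raw counts, for 54232 genes, were used for all results. The deposited signal table holds normalized counts, which the authors made by dividing each count by 1 size factor per library (relative spread 2.5e-16). The deposited FPKM are these values with 1 factor per gene, and gave relative gene lengths.

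All 42 libraries were fitted in 8 groups by edgeR 4.0.16 in R 4.3.3 (TMM, filterByExpr, quasi-likelihood F test), and 17088 genes were tested. A gene was called at an adjusted p (Benjamini-Hochberg over all genes tested) under 0.05. Fold changes are hippocampus over cerebellum label, their SE was derived from the F statistic as fold change divided by its square root, and CPM levels are given as mean ± SD (n = 6 and 5). The fit was tested on simulated data in which genes varied independently. That test does not cover shifts shared by many genes of a library. Named genes were, among called genes with a symbol and a mean of at least 1 CPM, the 8 largest rises, 8 largest falls, 8 smallest p and 2 smallest p per list, of which the text gives some; others are said to be named after their values were seen. Members, lists and rules were chosen with earlier results of these data known. Gene positions, transcripts and biotypes came from GENCODE M21, which held 54165 of the gene IDs. Alternatives were DESeq2 1.42.0, its size factors in edgeR, no low-count filter, the compared groups alone, a replicate block, a gene length offset, leaving out libraries and, for the mitochondrial share, other treatments of mitochondrial pseudogenes. Some genes are not reported here. Every value column had a sample.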

Additional observations from a re-analysis of the deposited data

Results flagged for a closer look

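A library far from the others of its label was found in 11 of 138 groups of libraries examined, where chance alone marks about 1 in 20, and the named genes had been chosen for their differences. In CB 2, Slc6a5 stood apart at 112 CPM, Hcrtr2 at 4.74 CPM and Minar1 at 10.6 CPM. The same library had the highest mean log2(CPM + 1) of the endothelial and pericyte list, 5.44, and the lowest of the inhibitory interneuron list, 5.33. In CB 3, Dbh stood apart at 28.8 CPM, and in H 5 it did so at 0.612 CPM, a level of few counts. In CB 5, AC149090.1 stood apart at 268 CPM and Pisd-ps1 at 30.6 CPM, both above the other libraries labelled cerebellum. In H 2, the choroid plexus list was high at 6.40 and the glutamate receptor list low at 5.16.

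The difference between the labels itself differed between western diet with NaKtide and western diet without it for 28 of the 36 named genes (edgeR interaction contrast, adjusted p from 0.014 to 0.0365). Over all genes tested, 8.84% were called in that contrast. The named genes were chosen by their label difference with NaKtide, which is part of that contrast and favours a high count. The label difference was more positive with NaKtide by a log2 difference of 2.61 for Slc39a2, 2.51 for Atcayos, 2.32 for Col16a1 and 2.45 for Dnhd1. It was so by 2.04 for Pisd-ps1, 2.28 for Kcnq1ot1, 2.12 for AC149090.1, 2.33 for Il18bp, 1.65 for Snrnp70 and 1.47 for Arhgap45. Further values were 0.85 for Pisd, 1.80 for Leng8, 2.19 for Meg3, 2.00 for Snhg11 and 2.37 for Fam193b. The last were 1.13 for Rbm5, 1.35 for Prpf40b, 1.73 for Akap8l and 1.87 for Celsr3. Without NaKtide the label difference of each of these genes was negative, such as -0.23 for Slc39a2 and -0.55 for Fam193b, and none was called. The label difference was more negative with NaKtide by -3.07 for Hcrtr2, -2.06 for Tmem196, -1.01 for Elovl4 and -0.94 for Cops2. It was so by -1.92 for Tmem30a, -1.87 for Mosmo, -1.16 for Usp9x, -1.37 for Hsd17b7 and -0.75 for Sc5d. Without NaKtide each of these was positive, and none was called. Between western diet with NaKtide and chow without it, the label difference differed for Il18bp (2.07, adjusted p = 0.0439), Pisd (0.96, adjusted p = 0.0267) and Mosmo (-1.53, adjusted p = 0.0417). Over all genes tested, 0.281% were called in the contrast with chow. These contrasts contain the 11 libraries in which the genes were called.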

How the results depend on the processing

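Of the 299 genes called between the labels, DESeq2 size factors in edgeR gave 288, of which 286 were shared, and the gene length offset gave 411, of which 281 were shared. DESeq2 gave 672, no low-count filter 115 (with 33562 genes tested), the compared groups alone 0, leaving out both libraries with the most Xist 502, and leaving out one library 0 to 843. The replicate block gave 29, of which 24 were shared. Same-numbered libraries of the labels had correlations of -0.19, 0.29, -0.01, 0.58 and 0.12, and a library correlated best with its own number for 2 of 5. The libraries also differed in region markers, so these correlations cannot tell whether the numbers pair animals. The main fit did not pair them. For the difference from western diet without NaKtide, 1510 genes, no low-count filter gave 794, the replicate block 2015, and leaving out one library 416 to 4089. For the difference from chow with NaKtide, 0 genes, DESeq2 gave 4 and leaving out one library 0 to 7. For the difference from chow without NaKtide, 48 genes, DESeq2 gave 1097, no low-count filter 7, the replicate block 356 and leaving out one library 0 to 3572. The cause of these shifts was not tested. The difference in mitochondrial share ran from 0.766 to 2.76 percentage points when one library was left out and was 3.23 with mitochondrial pseudogenes counted. No named gene changed sign under any alternative in which it was tested, but all 36 lost the call without CB 1, CB 2 or H 5. Depth limits the genes near 0, such as Slc6a4 with 2 counts in the hippocampus label, where levels rest on single reads.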
